A study of Homo sapiens with 6 samples.

Results

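The genes described here are epithelial keratins and the epithelial cell adhesion molecule EPCAM, in MDA-MB-231 cells kept on glucose or on fructose. The set was given by name as KRT7, KRT8, KRT18 and KRT19, the keratins of simple epithelia, KRT5, KRT14, KRT15 and KRT17, the keratins of basal epithelial layers, KRT80, and EPCAM. Of these 10 genes, 9 had a probe set annotated with that symbol alone, out of 18404 genes with such a probe set on the array. KRT17 had none and is not analysed here. KRT18 and EPCAM each had 2 such probe sets, so that 11 probe sets were read, and the brighter of each pair over all arrays stood for the gene. Both brighter probe sets have a number that does not go with the chromosome of the gene they are annotated to. Probe sets of this array are numbered along the chromosomes, and for 98.3% of 19128 probe sets with 1 gene, the chromosome commonest among the genes of the 20 nearest in number was that of their own gene. For EPCAM, a gene of chromosome 2, the 20 neighbours of the brighter probe set were all on chromosome 4 and those of the other all on chromosome 2. For KRT18, a gene of chromosome 12, they were all on chromosome 9 for the brighter probe set, while 18 of 20 were on chromosome 12 for the other. Whether the brighter probe sets measure these genes or similar sequence elsewhere was not tested. The differences on them are given with those of the other probe sets. Some counts, settings and profiles are given for the brighter probe sets alone.

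MDA-MB-231 is an established human breast cancer line of the triple-negative kind, with a largely mesenchymal shape. There were 3 cultures in 25 mM glucose and 3 in 10 mM fructose, each adapted separately for 25 days and measured on 1 array. RNA was taken at roughly 70% confluency and roughly 24 hours after the medium was renewed. Effects of fructose itself, of its lower concentration and of missing glucose cannot be told apart, and all cultures come from a single cell line.

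Keratins are the intermediate filament proteins of epithelial cells. A filament is built from pairs of an acidic type I keratin and a basic type II keratin, and the network is tied to neighbouring cells at desmosomes and to the basement membrane at hemidesmosomes. KRT8 and KRT18 are the usual partners of simple epithelia, with KRT7 and KRT19 added in ducts, while KRT5 pairs with KRT14 in basal cells. EPCAM is a transmembrane glycoprotein of epithelial cell contacts that is cut by surface proteases and by gamma-secretase, and it is widely used to capture carcinoma cells. Carcinoma cells that take on mesenchymal traits usually keep some keratins while they gain vimentin and lose E-cadherin.

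On the arrays of fructose cultures the signal of KRT7 was 1.38 times lower than on those of glucose cultures, and that of KRT8 was 1.20 times lower. For EPCAM the answer depended on the probe set, with a signal 1.39 times lower on the brighter and 1.13 times lower on the other. Every fructose array lay below every glucose array for KRT7, KRT8 and the brighter EPCAM probe set, while the other EPCAM probe set overlapped. In these bulk samples fewer cells with a transcript and less of it per cell cannot be told apart. The 4 simple keratins did not all lie on the same side, since KRT19 was higher on each fructose array than on any glucose array. The 95% interval of its log2 difference, -0.04 to 0.28, held 0. Of all probe sets, 11.4% were higher and 8.81% lower in fructose without overlap. The basal keratins KRT5, KRT14 and KRT15 overlapped between the sugars. No member passed the test over all 28230 probe sets in limma at an adjusted p of 0.05, where 0.00354% of probe sets were called. That was a single probe set, of TXNIP, a gene induced by glucose, which fell by 3.80 on the log2 scale in fructose (SE 0.10). At an unadjusted p under 0.05, 3 of the 9 genes were lower and 0 were higher in fructose, against 13.1% of all probe sets, 5.43% lower and 7.65% higher. These were KRT7, KRT8 and EPCAM, and with the other probe sets of KRT18 and EPCAM they were KRT7, KRT8 and KRT18. The members were named with earlier results of these arrays known, so these counts are a description.

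Promoter sequence from RefSeq (GRCh38.p14) was at hand for 2 of the 10 genes, KRT8 and KRT5, and is shown to set a simple keratin beside a basal keratin. Both genes lie on chromosome 12 on the minus strand. The windows are the 250 bases before the gene start, at chr12:52926470-52926719 for KRT8 and at chr12:52520395-52520644 for KRT5. Capitals mark the word CACCTG on either strand, which reads CAGGTG on the other strand and is the word that repressors of the SNAI and ZEB families bind.
KRT8: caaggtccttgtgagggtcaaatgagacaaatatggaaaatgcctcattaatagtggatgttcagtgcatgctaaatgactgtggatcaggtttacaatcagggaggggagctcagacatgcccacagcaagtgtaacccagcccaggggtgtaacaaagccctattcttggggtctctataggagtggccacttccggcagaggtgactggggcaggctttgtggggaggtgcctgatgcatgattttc
KRT5: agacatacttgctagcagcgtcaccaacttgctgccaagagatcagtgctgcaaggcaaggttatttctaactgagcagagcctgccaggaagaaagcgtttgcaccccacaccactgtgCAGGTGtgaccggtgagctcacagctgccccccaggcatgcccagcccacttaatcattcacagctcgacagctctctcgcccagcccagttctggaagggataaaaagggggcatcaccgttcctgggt
The KRT5 window held the word 1 time, starting at position -130 from the gene start, and the KRT8 window held it 0 times. Only 1 start per gene was searched, so other transcript starts are not covered. Of 35116 promoter windows of the same length, 17.5% held it. A match is a description of the letters and not a binding site.

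KRT7, a type II keratin of ducts and glands, had RMA intensities of 387, 350.2 and 367 on the glucose arrays and 257, 292 and 251 on the fructose arrays. RMA is the method by which background, array normalization and the probes of a set are combined into 1 signal, and replicates are given in the order 1, 2 and 3. All fructose arrays were lower, with replicate 2 nearest to glucose. The log2 difference, fructose minus glucose throughout, was -0.47 (SE 0.08, 95% interval -0.67 to -0.27, n = 3 per sugar, limma adjusted p = 0.14), or 1.38-fold lower with an interval of 1.20 to 1.59. By size of p, KRT7 ranked 166 among all probe sets.

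KRT8, the type II partner of KRT18, had intensities of 841, 753 and 756 in glucose and 644, 654 and 654 in fructose. The fructose arrays were tightly grouped, with 651 ± 5.34 (SD, n = 3) against 783 ± 49.9 (SD, n = 3) in glucose, and glucose replicate 1 stood above the other arrays of its sugar. The log2 difference was -0.27 (SE 0.07, 95% interval -0.44 to -0.10, adjusted p = 0.23).

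KRT18, the type I partner, gave different answers on its 2 probe sets, which carry the same list of transcripts in the array annotation. The brighter of them (8154725) had 335, 349.6 and 386 in glucose and 393, 378 and 284 in fructose. Here fructose replicate 1 lay above all glucose arrays, fructose replicate 2 lay within their range and fructose replicate 3 lay below every other array. The log2 difference was -0.03 (SE 0.13, 95% interval -0.35 to 0.28, adjusted p = 0.94), and it was above 0 when glucose replicate 3 (0.02) or fructose replicate 3 (0.11) was left out. The other probe set (7955637) had 347, 338 and 342 in glucose and 293, 303 and 290.0 in fructose. Its groups did not overlap, and its difference of -0.21 (SE 0.06, 95% interval -0.36 to -0.07, adjusted p = 0.25) was close in size to that of KRT8. RefSeq lists 68 pseudogenes named after KRT18, 52 after KRT8, 5 after KRT19 and 0 after KRT7 or EPCAM. How much near-identical copies add to these signals was not tested.

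KRT19, a small type I keratin of ducts, had 1669, 1760.4 and 1812 in glucose and 1885, 1961 and 1851 in fructose. All fructose arrays lay above all glucose arrays, but glucose replicate 3 and fructose replicate 3 were close. The difference was 0.12 (SE 0.07, 95% interval -0.04 to 0.28, adjusted p = 0.50), so that KRT7 and KRT19 stood on opposite sides of 0. The median difference of the 4 simple keratins was -0.15, with 3 lower and 1 higher, beside a median of 0.02 over all tested probe sets. It was -0.24 with the other KRT18 probe set and -0.08 without fructose replicate 3. With the brighter KRT18 probe set, the median on the single fructose arrays stood at -0.08, -0.09 and -0.29 from the glucose mean. Replicate 3 was the array low on that probe set. The other KRT18 probe set was lower on every fructose array than on any glucose array.

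**Figure D1:**
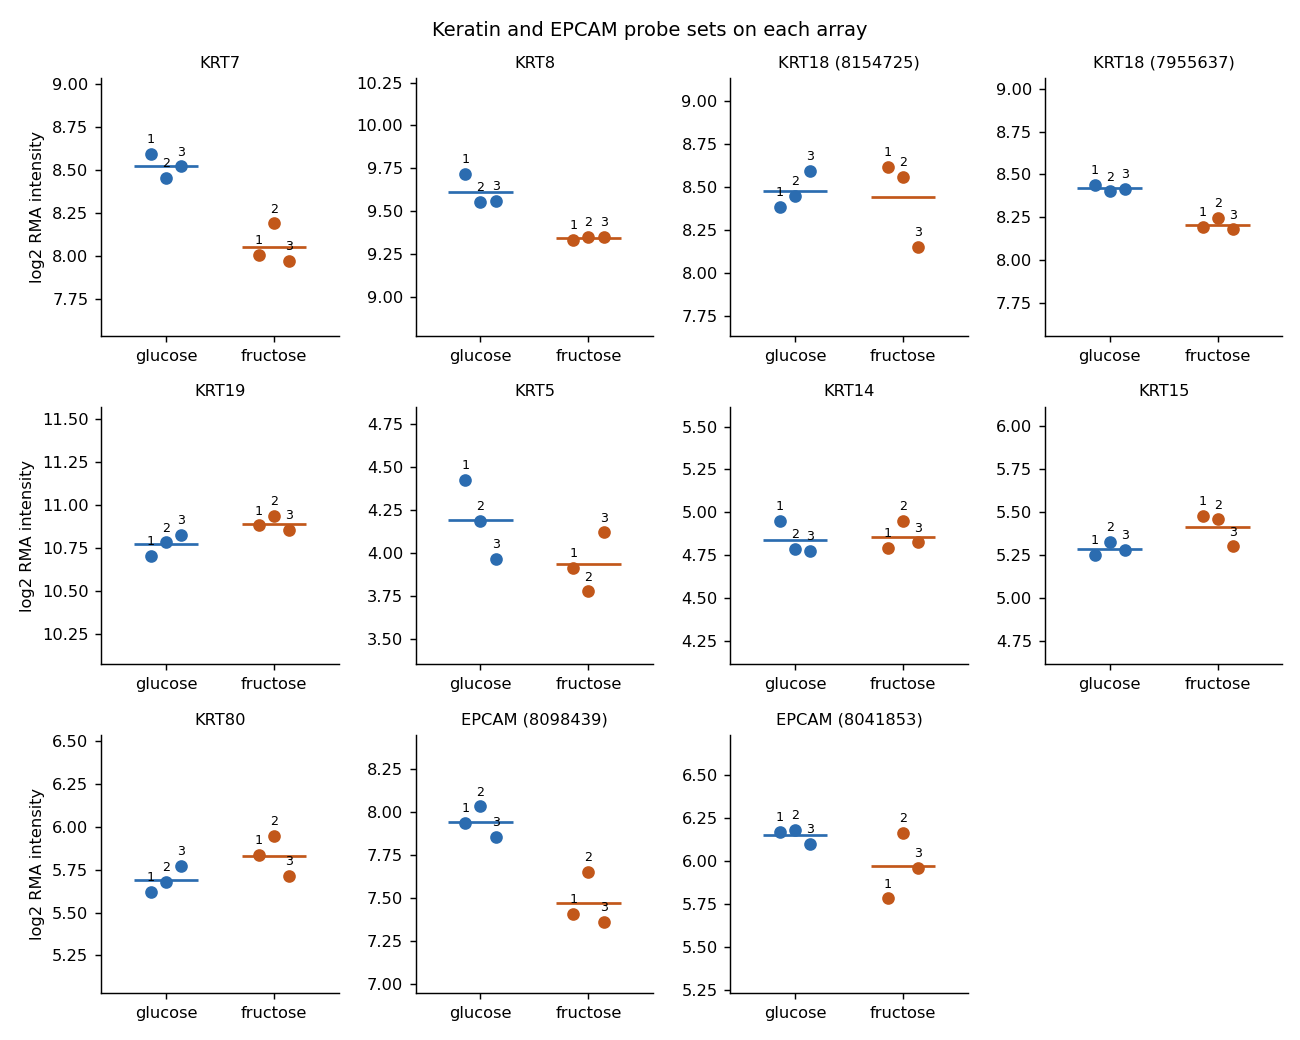
Log2 RMA intensity of the 11 probe sets on each of the 6 arrays, glucose at the left and fructose at the right of each panel, with replicate numbers above the points and a bar at the mean of 3 arrays. Every panel spans the same range of log2 units. KRT7, KRT8, EPCAM (8098439) and KRT18 (7955637) have all fructose arrays below all glucose arrays, whereas KRT18 (8154725) is low on fructose replicate 3 alone.

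KRT5, the type II keratin of basal cells, was dim, with 21.5, 18.2 and 15.6 in glucose and 15.0, 13.7 and 17.4 in fructose. Its arrays overlapped and the glucose arrays were widely spread. The difference was -0.26 (SE 0.14, 95% interval -0.58 to 0.07, adjusted p = 0.48), as large as that of KRT8 but with about 2 times its error. Between -0.37 and -0.14 was found when an array was left out.

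KRT14, the type I partner of KRT5, had 30.9, 27.6 and 27.4 in glucose and 27.8, 30.9 and 28.3 in fructose. These values interleaved, and the difference of 0.02 (95% interval -0.17 to 0.21, adjusted p = 0.94) had no settled sign, being -0.01 after centring each array on its median. KRT5 and KRT14 were both below the median probe set, whose mean log2 value was 5.01, and close to background a change in RNA is understated by the signal.

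KRT15, a type I keratin of basal cells without a fixed partner, had 38.0, 40.0 and 38.8 in glucose and 44.5, 43.9 and 39.4 in fructose. Fructose replicate 3 lay within the glucose range and the other fructose arrays lay above it. The difference was 0.13 (SE 0.08, 95% interval -0.05 to 0.30, adjusted p = 0.52). Over the 3 measured basal keratins the median difference was 0.02, with 2 higher and 1 lower, and it ran from -0.03 to 0.07 with an array left out. A difference between the simple and basal groups was not tested.

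KRT80, a type II keratin outside the simple and basal groups, had 49.1, 51.2 and 54.7 in glucose and 57.0, 61.6 and 52.5 in fructose. The groups overlapped through fructose replicate 3, and the difference was 0.14 (SE 0.09, 95% interval -0.06 to 0.34, adjusted p = 0.53). In RefSeq KRT80 lies between the protein-coding genes SMIM41 and KRT7 on chromosome 12, and KRT8 lies between KRT78 and KRT18. The difference of KRT7 had the opposite sign to that of KRT80. KRT15 and KRT19, also neighbours, lie on chromosome 17 and differed by 0.13 and 0.12.

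EPCAM had 245, 262 and 232 on its brighter probe set (8098439) in glucose and 169, 201 and 164 in fructose. All fructose arrays were lower, and as for KRT7 replicate 2 lay nearest to glucose. The difference was -0.47 (SE 0.10, 95% interval -0.70 to -0.24, adjusted p = 0.17), or 1.39-fold lower with an interval of 1.18 to 1.63. The other EPCAM probe set (8041853), which carries the same transcripts in the annotation and is the one numbered among genes of chromosome 2, had 72.0, 72.5 and 68.7 in glucose and 55.0, 71.8 and 62.1 in fructose. There fructose replicate 2 lay within the glucose range, and the difference was -0.18 (SE 0.10, 95% interval -0.43 to 0.06, adjusted p = 0.50), in the same direction and less than 0.5 times as large.

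**Figure D2:**
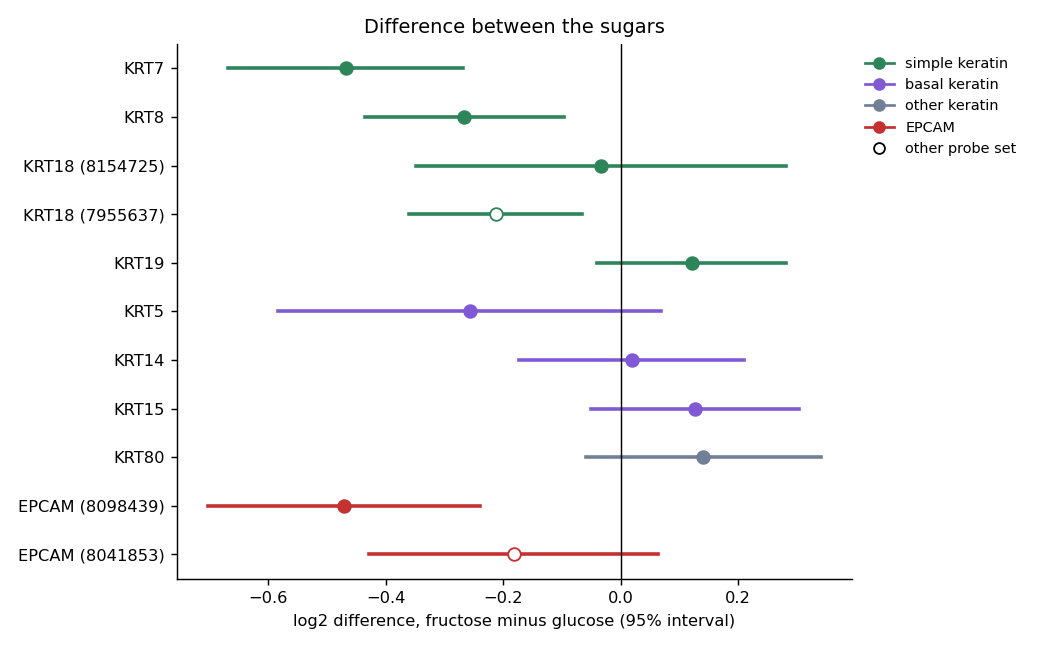
Log2 difference between fructose and glucose (horizontal axis) with its 95% interval for the 11 probe sets of the 9 measured genes, coloured by role, with open circles for the other probe set of KRT18 and EPCAM. The intervals of KRT7, KRT8, KRT18 (7955637) and EPCAM (8098439) lie below 0, and those of the basal keratins, KRT19 and KRT80 cross it.

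Whether KRT7, KRT8 and the brighter EPCAM probe set passed depended on the setting. With an intensity trend and robust variances all 3 passed, with adjusted p of 0.017, 0.038 and 0.031, against 1.68% of all probe sets called, 0.762% lower and 0.914% higher in fructose. Among probe sets brighter than the median KRT7 (0.036) and EPCAM (0.049) passed and KRT8 (0.073) did not, against 2.3% called, 1.01% lower and 1.3% higher. When any array was left out none of the 3 passed and each stayed lower in fructose, by 0.43 to 0.54 for KRT7, 0.21 to 0.29 for KRT8 and 0.41 to 0.56 for EPCAM on the log2 scale. The other EPCAM probe set passed in neither setting, with adjusted p of 0.48 with the trend and 0.32 among bright probe sets, and ran from -0.28 to -0.09 with an array left out. The other KRT18 probe set did not pass either (0.070 and 0.079), and ran from -0.23 to -0.20. The largest differences of KRT7 and EPCAM were found without fructose replicate 2. The sugars did not overlap for 4 of 9 genes, 3 lower and 1 higher in fructose, against 20.2% of all probe sets, 8.81% lower and 11.4% higher. That count used the brighter probe sets. On the other probe sets KRT18 was lower without overlap, while EPCAM overlapped.

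Keratins that share a filament were then compared within each array, as the log2 value of the type II keratin minus that of the type I keratin. Such a difference shows whether the pair changed unequally, not which partner changed. KRT7 minus KRT19 was -2.11, -2.33 and -2.30 in glucose and -2.88, -2.75 and -2.88 in fructose. The groups did not overlap and differed by -0.59, with an exact two-sided permutation p of 0.10, the smallest that 3 arrays against 3 can give, and 0.40 after adjustment over the 4 comparisons. KRT8 minus KRT18 differed by -0.23 with the brighter KRT18 probe set (exact p = 0.30) and by -0.05 with the other (exact p = 0.40). With that other probe set the fructose arrays, at 1.14, 1.11 and 1.17, overlapped the glucose arrays, at 1.28, 1.16 and 1.15. KRT5 minus KRT14 differed by -0.28 (exact p = 0.20), with overlap.

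**Figure D3:**
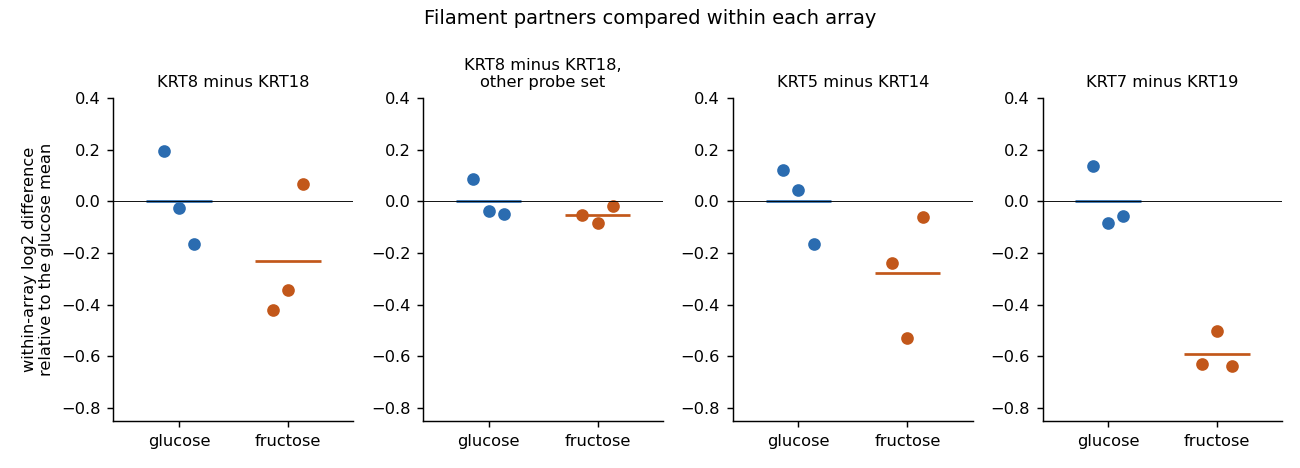
Within-array log2 difference of a type II and a type I keratin, set to 0 at the glucose mean, for each of the 6 arrays, with bars at group means. KRT7 minus KRT19 lies lower on all 3 fructose arrays, and the other comparisons overlap between the sugars.

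The other measured keratin genes gave little signal. Keratin genes without a probe set annotated with that symbol alone, such as KRT6A and KRT86, are not included. Of the 40 further keratin genes with such a probe set, 37 were dimmer than the median probe set and 0 passed over all probe sets. At an unadjusted p under 0.05, 1 was higher and 0 were lower, against 7.65% and 5.43% of all probe sets. Their differences ran from -0.16 to 0.28 with a median of 0.03. KRT34, a hair keratin, had the smallest p, with a difference of 0.26 (SE 0.09, adjusted p = 0.31) and no overlap between the sugars. KRT25 (0.19) and KRT39 (0.21) followed, both dim. KRT7 and KRT8 lay below the range of the 40 other genes, as did KRT5 and the other KRT18 probe set (-0.21). Since 37 of the 40 were dim, that range is a weak yardstick for bright genes.

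**Figure D4:**
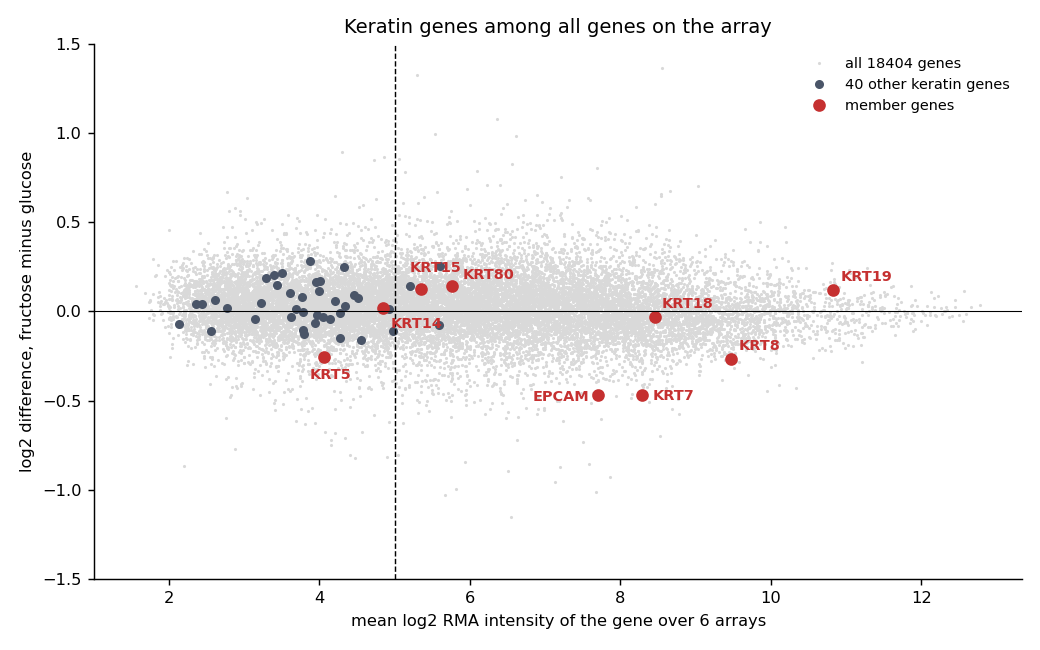
Log2 difference between fructose and glucose against the mean log2 intensity over 6 arrays for 18404 genes (grey), 40 other keratin genes (dark) and the 9 members (red), with a dashed line at the median probe set, 5.01. A single gene lies outside the vertical axis and is not drawn. KRT7, KRT8 and EPCAM, as its brighter probe set, lie below 0 among bright genes, and 37 of the 40 other keratins lie left of the line.

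Genes that anchor keratin filaments included some of the largest differences near the members. In this list of desmosomal and hemidesmosomal genes 19 of 20 were measured. None passed over all probe sets. At an unadjusted p under 0.05, 4 were lower and 2 were higher, against 5.43% of all probe sets lower and 7.65% higher, and the median was 0.03. DSC2, a desmosomal cadherin, had log2 values of 6.25, 6.65 and 6.18 in glucose and 5.55, 5.62 and 5.36 in fructose. The groups were apart by more than 0.5, and the difference was -0.85 (SE 0.14, 95% interval -1.17 to -0.52, adjusted p = 0.14). DSG2, the cadherin it meets in simple epithelia, had 8.56, 8.74 and 8.63 in glucose and 8.13, 8.26 and 8.02 in fructose. Its groups did not overlap either, with a difference of -0.51 (SE 0.09, adjusted p = 0.14). DSP, desmoplakin, which ties keratins to the desmosome, had 7.45, 7.48 and 7.50 in glucose and 7.20, 7.16 and 7.14 in fructose. The difference was -0.31 (SE 0.06, adjusted p = 0.16), and with the intensity trend DSC2 (0.019), DSG2 (0.015) and DSP (0.036) passed.

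The other anchoring genes lay on both sides of 0. Of the 19, 8 were lower and 11 were higher, and PERP, a desmosomal membrane protein, was lower by 0.16 without overlap. The plakoglobin gene JUP differed by 0.10, the plakophilin PKP2 by 0.01, and plectin, PLEC, which links filaments to hemidesmosomes, by 0.21. ITGA6 and ITGB4, the integrin pair of hemidesmosomes, differed by -0.15 and 0.24. These 6 genes were chosen after their values were seen, to show the spread within the list.

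Among partners and proteases of EPCAM, of 16 listed genes 14 were measured, 0 passed, 2 were higher and 0 lower at an unadjusted p under 0.05, against 7.65% and 5.43% of all probe sets, and the median was 0.04. BACE2, a protease, differed by 0.38 (SE 0.10, adjusted p = 0.21), FHL2, which binds the cut tail of EPCAM in the nucleus, by 0.24, and the gamma-secretase subunit NCSTN by 0.15. CLDN7, the claudin that binds EPCAM, differed by 0.03 and was chosen after its value was seen. In the list of epithelial junction and polarity genes 15 of 19 were measured, and the median was 0.04. At an unadjusted p under 0.05, where 13.1% of all probe sets lay, its single member was CXADR, a tight junction receptor, lower by 0.19 (adjusted p = 0.37). PATJ and TJP3 differed by -0.10 and 0.11. E-cadherin, CDH1, was dim in both sugars, with mean log2 values of 3.09 and 3.04.

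Among regulators of epithelial genes 19 of 22 were measured and 0 passed. At an unadjusted p under 0.05, 4 were higher and 2 lower, against 7.65% and 5.43% of all probe sets, and the median was -0.0019. SNAI2, a repressor of epithelial genes, had log2 values of 9.44, 9.37 and 9.49 in glucose and 9.90, 9.96 and 9.83 in fructose. Its difference was 0.46 (SE 0.07, adjusted p = 0.13), and it passed with the intensity trend (0.0068). TFAP2C, a factor of luminal breast cells, differed by 0.30 and ZEB2, another repressor, by 0.27. ZEB1, a repressor of the same family, differed by -0.12 (SE 0.06, adjusted p = 0.44), with every fructose array below every glucose array, and was chosen after its values were seen. Of 13 other intermediate filament genes 0 passed, 1 was higher at an unadjusted p under 0.05, against 7.65% of all probe sets, and the median was 0.05. LMNA, the A-type lamin, differed by 0.19, LMNB1 by -0.14 and NEFL by 0.10, while vimentin, VIM, the filament protein of mesenchymal cells, differed by 0.01 (SE 0.07).

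**Figure D5:**
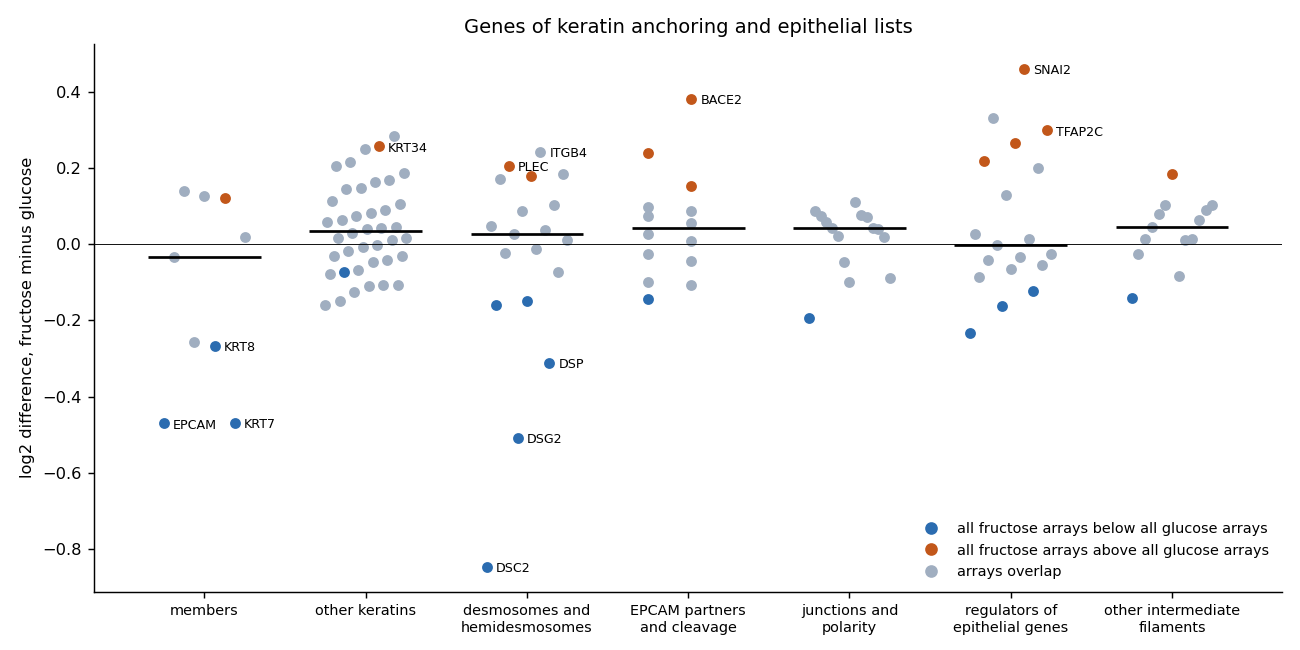
Log2 difference between fructose and glucose for each measured gene of the members and of 6 related lists, KRT18 and EPCAM by their brighter probe set, with a bar at the median of each list and colours for genes whose arrays do not overlap between the sugars. DSC2, DSG2 and DSP are the 3 lowest genes of the anchoring list, at -0.85, -0.51 and -0.31, while the median of that list is 0.03.

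Genes with the profile most like that of a member were found by the root mean square difference of centred log2 values over the 6 arrays, among 11059 genes brighter than the median probe set. The nearest to KRT7 were TIMM21 (0.038), CYP1A1 (0.041) and PRDM1 (0.041). The nearest to KRT8 were PPP2R2A (0.024), EIF1AX (0.030) and ODF2L (0.036). For the brighter EPCAM probe set they were FAM234B (0.039), RBM24 (0.044) and PIGB (0.049). All 9 were lower in fructose, which follows from the way they were chosen, and none is a keratin or a desmosomal gene.

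The arrays were alike in level, with median intensities of 33.1 to 34.8, and the median SE of a log2 difference was 0.095. Defining genes of the line were bright in both sugars, with VIM at 11.5 and CD44 at 10.9 in glucose (mean log2), while ESR1 (4.02), PGR (2.63) and CDH1 (3.09) were dim. Of the 6 genes listed as low in the line, FOXA1 (4.49) was also dim, while GATA3 (6.38) and ERBB2 (6.43) were brighter than the median probe set. Of 8 measured leukocyte markers all 8 were dimmer than the median probe set, and PTPRC was at 2.34. Their summed intensity was 125 to 135 in glucose and 127 to 138 in fructose. For 8 fibroblast markers, 7 of them dim, the sum was 136 to 138 in glucose and 129.8 to 136 in fructose, and for 7 endothelial markers, 6 of them dim, 122 to 131 and 127 to 146. The 10 luminal breast markers, which include KRT8 and KRT18, summed to 1887 to 1922 in glucose and 1772 to 2207 in fructose. Of these markers AGR2 was the most widely spread on the fructose arrays, with log2 values of 9.21, 7.68 and 8.83. In glucose it had 8.07, 8.42 and 8.13. The marker with the smallest p was LYZ among leukocyte genes (-0.30), FAP among fibroblast genes (0.12), KDR among endothelial genes (0.42) and XBP1 among luminal genes (0.36), and none passed.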

How the data were processed

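Each of the 6 arrays, 3 per sugar, has 1 value per probe set in the deposited table. The authors deposited these as intensities from RMA, according to the submitters' processing notes. For version, program, build and filters, nothing is stated in the sources used here. Because the largest intensity was 9287, the scale was read as linear, and log2 was taken with no pseudocount and no filter on dim probe sets. From 32321 rows, 4091 numbered below the first annotated row were left out as likely controls, a reading of the numbering. The platform annotation gave 19158 of the remaining 28230 probe sets 1 gene, 1388 several genes and 7684 no gene. All 11 member probe sets matched RefSeq by gene number.

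The sugars were compared by limma 3.58.1 in R 4.3.3 (lmFit, eBayes, two-sided), p-values being adjusted over all 28230 probe sets by Benjamini-Hochberg. Keratins of different type were compared by exact permutation over the arrays. The test was first run on simulated data. Members and lists were chosen with earlier results of these data known. Genes named are the members, any gene past the threshold, up to 3 per list by smallest p and the 3 nearest in profile, and any others are markers or were chosen after their values were seen. Settings tried instead were a block for replicate number, leaving out any array, a second quantile normalization, median centring, only bright probe sets, limma's trend with robust variances, weights per array, averaging the probe sets of a gene and keeping the control rows. The other probe set of KRT18 and EPCAM was added after seeing the data. Replicates are separately adapted batches. Precision is limited by having few arrays.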

Additional observations from a re-analysis of the deposited data

How the results depend on the processing

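Among bright probe sets alone 325 of 14115 probe sets (2.3%) were called. Of all lists, members included, 6 genes were called, 2 of them members. KRT7 stood at -0.47 and EPCAM at -0.47, and the basal keratins were reduced to KRT15, at 0.13. With an intensity trend and robust variances 473 of 28230 probe sets (1.68%) were called. Of all lists, members included, 7 genes were called, 3 of them members. KRT7 stood at -0.47, KRT8 at -0.27 and EPCAM at -0.47. In the main analysis 1 probe set, 0 members and 0 genes of the lists were called. Among bright probe sets there were fewer probe sets to adjust over, and limma estimated its variances anew from them. Why the counts differed was not tested. KRT14 changed sign after quantile normalization again (-0.0026), after centring arrays on their median (-0.0064) and with an array left out (-0.028 to 0.074). KRT18 ran from -0.12 to 0.11 with an array left out. With the other probe set of KRT18, chosen after seeing the data, the simple keratins had a median of -0.24, and with that of EPCAM the gene stood at -0.18 (adjusted p = 0.50) in place of -0.47. EPCAM elsewhere is its brighter probe set. The other 7 members kept their direction under every alternative run. Same-numbered cultures did not deviate together (correlations of -0.03, -0.02 and -0.05), so the numbers were not taken as pairs. With the replicate block KRT7 stayed at -0.47 (adjusted p = 0.37), EPCAM at -0.47 (0.37) and KRT8 at -0.27 (0.42), and the block changed no call. The within-array difference was not run with array weights or the trend, which do not enter it.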
